A study of Mus musculus with 9 samples.

Results

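The newborn neuron genes are genes that cells of the neural tube switch on as they leave the cell cycle and begin to make axons. They were taken by symbol from a table of read counts, as genes for the cytoskeleton, RNA binding, transcription and membranes of young neurons. Of 44 names listed, 43 matched a row of the table, and the name without a row stood for no gene. After a filter on low counts, 42 of the 43 were tested, out of 15695 genes tested and 48587 in the table. Neurod6, a bHLH factor of later cortical neurons, did not pass the filter, with 2 counts in all 9 libraries, 1 in a wild-type and 1 in a d28-30 library.

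The counts come from RNA sequencing of whole hindbrains of untreated C57BL/6N mouse embryos on embryonic day 9.5, with 3 libraries for each of 3 genotypes of Zfp423, a transcription factor gene with many zinc fingers. The wild-type (wt) embryos were littermates with the full-length protein. The d9-20 embryos carried a deletion of exon 4, so that the protein lacks zinc fingers 9 to 20, and the d28-30 embryos a deletion of exons 6 and 7, so that it lacks zinc fingers 28 to 30. The labels do not say which litters the wt embryos came from, whether embryos were pooled, or whether each library is a different embryo, so the p-values cover the spread among these libraries and that spread may be technical. Libraries are called replicate 1 or 2 by the number in their titles, and the unnumbered one of each genotype replicate 3.

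Newborn neurons in the hindbrain at this stage are the first neurons of the cranial nerves and of the early axon tracts. Proneural bHLH factors in dividing progenitors turn on NEUROD and NHLH factors, which bind short DNA motifs called E-boxes (CANNTG). RNA-binding proteins of the ELAV family, neuronal tubulin with its binding proteins, neurofilaments, adhesion molecules and the first vesicle proteins follow. In bulk RNA, fewer cells of a type and less RNA per cell cannot be told apart, so every difference below is one of the whole hindbrain.

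The promoters of the genes were available for 29 of the 43 in a RefSeq table on GRCm38.p6, and the 250 bases before each start site were searched on both strands. The table holds 54 promoters of the 29 genes, some of them overlapping windows of 1 gene. The E-box letters CAGATG were found in 14 of the 54 (25.9%), from 7 genes, beside 14.4% of all 32851 promoters in the table. The palindrome CAGCTG was found in 10 (18.5%), also from 7 genes, beside 13% of all, and the general CANNTG, which includes both, in 37 (68.5%), from 22 genes, beside 66.2%. With 1 promoter a gene, the one nearest the annotated 5′ end, the shares of the 29 were 17.2%, 13.8% and 58.6%. A match is a description of letters, not a site of binding. The windows below show a match in promoters of genes from 4 groups, namely a bHLH factor, a microtubule regulator, an ELAV gene and a neurofilament gene. All 4 lie upstream of the gene in GENCODE M21, run 5′ to 3′ on the strand of the gene, and carry the motif in capitals. The Nhlh1 window is chr1:172057597-172057846 on the minus strand, with CAGATG 203 bases before the start site, and the Stmn3 window chr2:181314501-181314750 on the minus strand, with CAGATG 75 bases before it. The Elavl3 window is chr9:22052024-22052273 on the minus strand, with CAGCTG 43 bases before the start site, and the Ina window chr19:47014431-47014680 on the plus strand, with CAGCTG 135 bases before it.
Nhlh1: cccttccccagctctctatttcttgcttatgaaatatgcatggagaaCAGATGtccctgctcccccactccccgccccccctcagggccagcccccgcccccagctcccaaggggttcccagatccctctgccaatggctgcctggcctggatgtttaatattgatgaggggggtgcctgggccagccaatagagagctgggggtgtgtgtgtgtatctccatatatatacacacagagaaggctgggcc
Stmn3: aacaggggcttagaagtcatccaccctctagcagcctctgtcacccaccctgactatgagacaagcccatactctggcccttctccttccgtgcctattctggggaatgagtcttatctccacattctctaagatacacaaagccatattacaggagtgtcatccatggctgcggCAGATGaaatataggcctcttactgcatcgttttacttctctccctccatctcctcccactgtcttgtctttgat
Elavl3: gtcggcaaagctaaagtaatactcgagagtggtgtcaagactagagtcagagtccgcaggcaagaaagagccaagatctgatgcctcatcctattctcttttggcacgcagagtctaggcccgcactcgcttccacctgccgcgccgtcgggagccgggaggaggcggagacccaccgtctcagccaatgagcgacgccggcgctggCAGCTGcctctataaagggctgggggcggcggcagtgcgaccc
Ina: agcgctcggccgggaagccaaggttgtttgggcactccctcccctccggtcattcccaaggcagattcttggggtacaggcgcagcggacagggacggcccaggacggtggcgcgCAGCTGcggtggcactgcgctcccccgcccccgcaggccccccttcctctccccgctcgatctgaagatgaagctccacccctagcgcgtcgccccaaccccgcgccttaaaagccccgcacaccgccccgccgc

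In wt hindbrain the genes spanned more than 3 orders of magnitude per length of transcript. Levels were computed as CPM (counts scaled to library size with TMM factors) per kilobase of annotated exons, with the SD over 3 libraries. Tubb3, the neuron-specific beta-tubulin, stood highest at 132 ± 36 CPM per kb. Gap43, a growth cone protein, followed at 48.1 ± 3.16, Dpysl3, a collapsin response mediator, at 38.4 ± 4.51, and Tagln3, a calponin family protein, at 28.8 ± 6.85. The neurofilament genes Nefm and Nefl had 24.9 ± 6.67 and 19.7 ± 4.57 CPM per kb. Neighbours in this order overlapped within 1 SD, apart from Tubb3 and Gap43, Gap43 and Dpysl3, Mapt and Rbfox3, Syt4 and Myt1l, and Nefh and Neurod6. The lowest tested were the neurofilament gene Nefh at 0.0992 ± 0.0286 and Myt1l, a zinc finger factor of maturing neurons, at 0.123 ± 0.013 CPM per kb. Without the length scale, 4 of the 42 genes had a wt mean of at least 100 CPM, 31 of at least 10 CPM, and 2 lay below 1 CPM.

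The totals were 16903382 to 24216412 counts per library, which puts a floor of 3 counts at 0.126 to 0.177 CPM. Zfp423 reads over all exons were at 101, 105 and 118 CPM in wt, at 155, 156 and 194 CPM in d9-20, and at 159, 172 and 183 CPM in d28-30. The d28-30 replicate 2 library stood apart, with a chi-square per degree of freedom of 27.7 to 64.8 against the other 8 libraries, while no other pair exceeded 18.6. Its share of mitochondrial counts was 2.07%, beside 0.904% to 1.42% in the rest. Levels in this library followed transcript GC content, for the neuron genes as for the rest. Y-linked genes were near 0 in replicate 1 of d9-20 and of d28-30 and present in the other 7 libraries. Genes of hindbrain identity, such as Egr2 and the Hox genes, summed to 115 to 158 CPM, and Otx2, which marks forebrain and midbrain, had a mean of 73.4 CPM in wt.

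None of the 42 genes passed an adjusted p of 0.05 in any comparison by edgeR's quasi-likelihood test with Benjamini-Hochberg adjustment over all genes tested. Against wt, 26 genes of the table passed in d9-20 (0.166%) and 25 in d28-30 (0.159%), and between the mutants none did (0.0%). With the library number as a replicate block, 55 genes of the table passed in d9-20 and again none of the 42. In the test for any difference among the genotypes, the smallest adjusted p of a neuron gene was 0.196, for Map2, while 20 of the 42 had an unadjusted p under 0.05, as did 8.28% of all genes tested. The genes named below were given with every library by a rule on level and p, described with the processing.

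In d9-20 hindbrain, 38 of the 42 neuron genes had a lower fitted level than wt, as did 48.8% of all genes. Their median log2 difference was -0.32, beside 0.0 for all genes, and it ran from -1.49 for Prph to 0.22 for Rbfox3. The 4 above 0 were Neurod1, Celf3, Rbfox3 and Myt1l. An unadjusted p under 0.05 with a lower level was found for 13 of the 42 and for 3.07% of all genes. Only for Prph did all 3 d9-20 libraries lie below all 3 wt libraries, which 5.17% of all genes did.

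Without wt replicate 1, the median was -0.172 with 1 gene at an unadjusted p under 0.05, and without wt replicate 2 it was -0.48 with 23. The medians of all genes in these fits were -0.001 and 0.004, and their share at that p was not counted.

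In d28-30 hindbrain, 35 of the 42 genes lay above wt, as did 50.3% of all genes, and the median log2 difference was 0.17, beside 0.0 for all genes. It ran from -0.7 for Prph to 0.63 for Neurod4. An unadjusted p under 0.05 with a higher level was found for 6 of the 42 and for 4.63% of all genes. All 3 d28-30 libraries lay above all 3 wt libraries for 7 of the 42 and for 6.63% of all genes. Without d28-30 replicate 2, the library that stood apart, 40 of the 42 lay above wt with a median of 0.167. Without d28-30 replicate 1 it was 25 of the 42 with a median of 0.079, and without wt replicate 2 it was 23 of the 42 with a median of 0.05. Both mutant comparisons use the same 3 wt libraries, so they are not independent of each other.

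Directly between the mutants, d9-20 lay below d28-30 for 41 of the 42 genes, as did 51.6% of all genes, with Rbfox3 as the exception at 0.09. The median log2 difference was -0.51, beside -0.01 for all genes. The lowest was -1.44 for Syt4, which had 6 to 14 counts in the d9-20 libraries. An unadjusted p under 0.05 with a lower level in d9-20 was found for 23 of the 42 and for 5.28% of all genes, and the libraries did not overlap for 20 of the 42 and for 8.19% of all genes. The smallest adjusted p was 0.236, for Map2. Without d28-30 replicate 2, all 42 lay below, with a median of -0.551. With DESeq2 on the same genes, 8 of the 42 passed in this comparison (Map2, Stmn2, Elavl2, Elavl4, Neurod4, Onecut2, Snap25 and Syt1) and none against wt, and with limma-voom none passed in any comparison. Without the filter on low counts, edgeR called 15 between the mutants, 5 in d9-20 and 2 in d28-30 against wt. Of all genes, DESeq2 called 0.503% between the mutants, and edgeR without the filter called 0.468%, 0.521% and 0.345%.

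**Figure D1:**
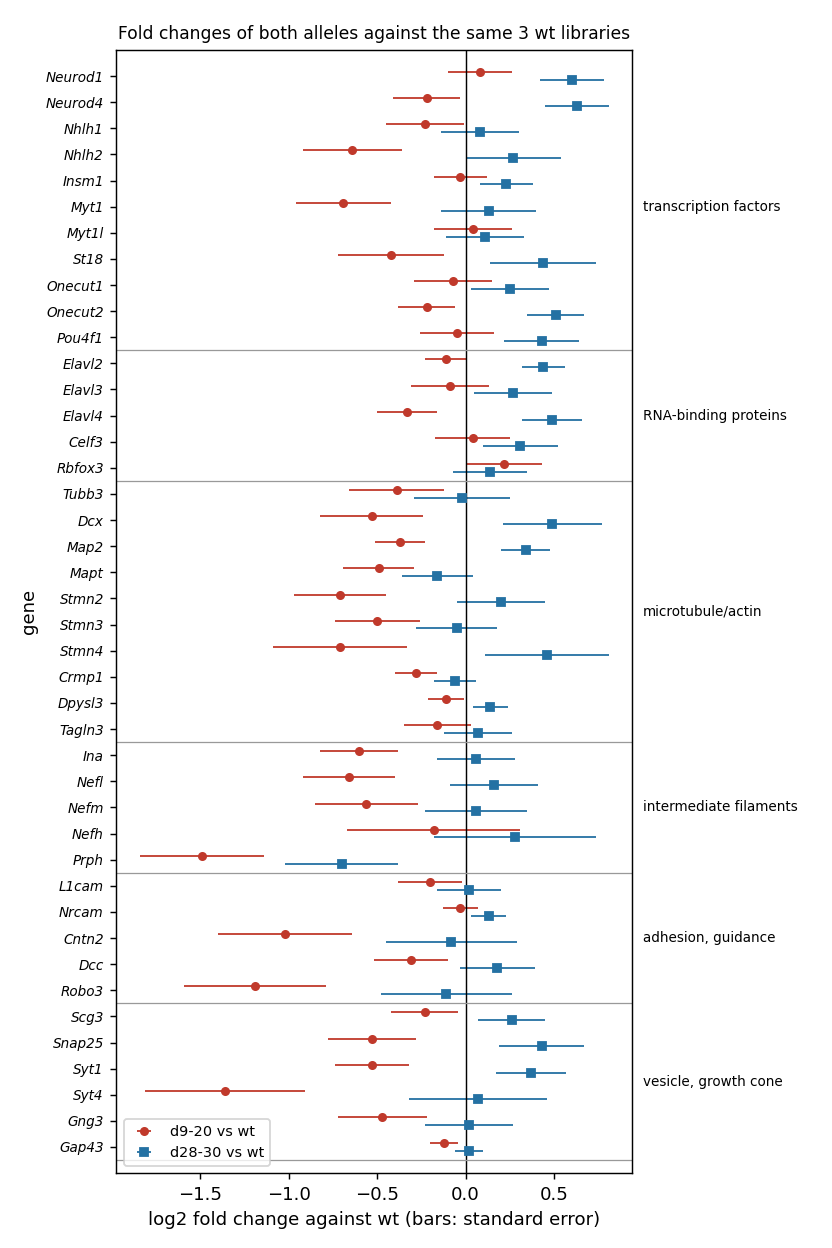
Log2 fold change (x axis) of the 42 tested newborn neuron genes (y axis, grouped by role) in d9-20 (red circles) and d28-30 (blue squares) against the same 3 wt libraries, with bars of 1 standard error from edgeR. Most d9-20 points lie left of 0 (38 of 42) and most d28-30 points right of it (35 of 42), while no gene passed an adjusted p of 0.05.

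Among the 11 transcription factors tested, 9 lay below wt in d9-20 (median -0.22) and 11 above wt in d28-30 (median 0.27). Neurod1, a bHLH factor that drives neuronal differentiation, had 36.9, 25.5 and 25.1 CPM in wt replicates 1, 2 and 3, then 33.8, 26.4 and 32.4 CPM in d9-20, and 38.7, 55.8 and 38.4 CPM in d28-30. The d9-20 libraries lay within the wt range and the d28-30 libraries all above it, for a log2 difference of 0.6 ± 0.18 (SE) against wt (adjusted p = 0.407).

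Neurod4, a related bHLH factor, had 24.0, 17.4 and 15.1 CPM in wt, 17.4, 16.2 and 15 CPM in d9-20, and 28.0, 35.6 and 23.5 CPM in d28-30. Wt replicate 1 reached into the d28-30 range. The difference was 0.63 ± 0.18 in d28-30 against wt (adjusted p = 0.395) and -0.84 ± 0.18 between d9-20 and d28-30 (adjusted p = 0.277), where the libraries did not overlap. Onecut2, a CUT homeobox factor, had 43.9, 30.4 and 35.6 CPM in wt, 31.5, 28.5 and 34.7 CPM in d9-20, and 47.2, 64.6 and 45.1 CPM in d28-30. Its d28-30 libraries lay above all others, with a log2 difference of 0.51 ± 0.16 against wt (adjusted p = 0.414). For these 3 factors replicate 2 was the highest of the d28-30 libraries.

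The MYT family of zinc finger factors spanned a range of differences in d9-20. Myt1 was at -0.69 ± 0.27 against wt (adjusted p = 0.716), the lowest of the transcription factors. The relative St18 was at -0.42 ± 0.3 and Myt1l at 0.04 ± 0.22. The bHLH gene Nhlh2 was at -0.64 ± 0.28 in d9-20, while its relative Nhlh1 was at -0.23 ± 0.22. Insm1, a zinc finger factor of newly formed neurons, and Pou4f1, a POU factor of sensory neurons, differed from wt by -0.03 ± 0.15 and -0.05 ± 0.21 in d9-20. In d28-30 both lay above wt in all 3 libraries, by 0.23 ± 0.15 and 0.43 ± 0.21. Onecut1 was at -0.07 ± 0.22 in d9-20 and 0.25 ± 0.22 in d28-30, and 52.8% of its exons overlap a noncoding gene on the same strand, so its reads are uncertain.

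All 5 RNA-binding genes lay above wt in d28-30 (median 0.31), and 3 of 5 below it in d9-20 (median -0.09). Elavl2 encodes an ELAV protein that stabilises neuronal mRNAs. It had 58.5, 47.6 and 46.3 CPM in wt, 48.6, 45.6 and 47.2 CPM in d9-20, and 61.9, 82.7 and 62.6 CPM in d28-30. All d28-30 libraries were above all others, with a log2 difference of 0.44 ± 0.12 against wt, the smallest adjusted p of that comparison among the neuron genes (0.37).

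Elavl4, its relative, had 64.1, 41.9 and 45.4 CPM in wt, 40.4, 35.5 and 44.9 CPM in d9-20, and 64.9, 85.4 and 61.8 CPM in d28-30. The mutants did not overlap, at -0.81 ± 0.17 (adjusted p = 0.245), and wt replicate 1 lay within the d28-30 range. Elavl3 had 65.1, 38.5 and 64.6 CPM in wt, 51.0, 39.1 and 67.6 CPM in d9-20, and 78.0, 59.1 and 65.8 CPM in d28-30, so that all 3 genotypes overlapped and wt replicate 2 was the lowest library. Celf3, an RNA-binding splicing regulator, and Rbfox3, the neuronal splicing factor known as NeuN, differed from wt by 0.04 ± 0.21 and 0.22 ± 0.21 in d9-20.

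All 10 genes for microtubule and actin regulators lay below wt in d9-20 (median -0.44), and 6 of 10 lay above wt in d28-30 (median 0.11). Tubb3 had 275, 169 and 294 CPM in wt, 158, 139 and 266 CPM in d9-20, and 291, 180 and 258 CPM in d28-30. In each genotype 1 or 2 libraries stood well below the rest, replicate 2 among them each time, and d9-20 replicate 3 lay within the range of the other genotypes, while d9-20 replicates 1 and 2 lay below all their libraries. The log2 difference was -0.39 ± 0.27 in d9-20 (adjusted p = 1.0) and -0.02 ± 0.27 in d28-30 (adjusted p = 0.985).

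Map2, a protein that binds dendritic microtubules, had 91.5, 59.2 and 73.8 CPM in wt, 58.1, 55.1 and 60.7 CPM in d9-20, and 92.5, 109 and 83.4 CPM in d28-30. All d9-20 libraries were below all d28-30 libraries, at -0.71 ± 0.14, and 1 d9-20 library reached into the wt range, at -0.37 ± 0.14 (adjusted p = 0.702). Stmn2, a stathmin that binds tubulin in growing axons, had 59.4, 33.8 and 57.7 CPM in wt, 26.8, 21.5 and 44.1 CPM in d9-20, and 60.9, 60.9 and 51.7 CPM in d28-30. Its difference was -0.71 ± 0.26 in d9-20 against wt (adjusted p = 0.627) and -0.9 ± 0.26 between the mutants (adjusted p = 0.392). Here wt replicate 2 lay below d9-20 replicate 3, and d9-20 replicates 1 and 2 below all other libraries.

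Dpysl3 had 273, 220 and 270 CPM in wt, 233, 212 and 262 CPM in d9-20, and 285, 279 and 278 CPM in d28-30. The d28-30 libraries lay within a narrow band above all others, but only by 0.14 ± 0.1 on the log2 scale against wt (adjusted p = 0.623). The remaining cytoskeletal genes in d9-20 ran from -0.16 ± 0.19 for Tagln3 to -0.71 ± 0.38 for Stmn4, and included Dcx, the microtubule protein doublecortin, at -0.53 ± 0.29, and Mapt, which encodes tau, at -0.49 ± 0.2.

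The 5 neuronal intermediate filament genes all lay below wt in d9-20 (median -0.6), and 4 of 5 above wt in d28-30 (median 0.06). Nefl, the light neurofilament chain, had 78.2, 49.1 and 72.6 CPM in wt, 39.3, 25.9 and 61.1 CPM in d9-20, and 81.2, 71.8 and 70.4 CPM in d28-30. Replicates 1 and 2 of d9-20 were the 2 lowest libraries, and replicate 3 lay within the wt range, for -0.66 ± 0.26 against wt (adjusted p = 0.698). Nefm, the medium chain, had 173, 100 and 158 CPM in wt, 87.0, 57.9 and 147 CPM in d9-20, and 173, 132 and 146 CPM in d28-30, in the same order of libraries within wt and d9-20. The 2 genes lie on opposite strands of chromosome 14, with Nefl inside the annotated span of Nefm (GENCODE M21 on GRCm38, Nefl at 68083863 to 68089095 and Nefm at 68082590 to 68124846). Their annotated exons overlap by 1108 nt, which is 32.8% of those of Nefl. The strand setting of the counting is not given in the sources used here, so reads from the overlap may not be told apart.

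Prph, which encodes peripherin, a filament protein of neurons with axons in peripheral nerves, was scarce. It had 1.01, 0.653 and 1.13 CPM in wt, 0.354, 0.303 and 0.329 CPM in d9-20, and 0.707, 0.379 and 0.664 CPM in d28-30. All d9-20 libraries lay below all libraries of the other genotypes. The log2 difference was -1.49 ± 0.35 in d9-20 (adjusted p = 0.199) and -0.7 ± 0.32 in d28-30 (adjusted p = 0.61), the lowest of the 42 genes in both comparisons. With a correction for transcript GC content and the replicate block together, described below, its difference in d9-20 was -1.51 (adjusted p = 0.0476, edgeR). In that fit, with a correction chosen after the data were seen, 1.22% of all genes passed. Prph had only 6 or 7 counts in each d9-20 library. Ina, which encodes alpha-internexin, was at -0.6 ± 0.22 in d9-20, with 14.1% of its exons over a gene on the opposite strand, and Nefh, at less than 0.7 CPM in every library, at -0.18 ± 0.49.

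All 5 adhesion and guidance genes lay below wt in d9-20 (median -0.31), over a wide range, and 3 of 5 above wt in d28-30 (median 0.02). Robo3, a receptor that lets commissural axons cross the midline, had 6.8, 3.16 and 5.65 CPM in wt, 2.43, 0.858 and 3.53 CPM in d9-20, and 6.19, 4.04 and 4.42 CPM in d28-30. The d9-20 libraries overlapped wt only through wt replicate 2, at -1.19 ± 0.4 (adjusted p = 0.558). Cntn2, the axonal adhesion protein TAG-1, had 28.7, 13.7 and 26.4 CPM in wt, 9.11, 5.6 and 19.1 CPM in d9-20, and 25.6, 18.4 and 21.1 CPM in d28-30, with the same overlap and a difference of -1.02 ± 0.38 (adjusted p = 0.643).

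The other 3 had smaller differences. L1cam, an adhesion molecule of axon bundles, had 23.2, 17.2 and 23.2 CPM in wt, 16.1, 14.8 and 24.4 CPM in d9-20, and 23.1, 19.9 and 21.8 CPM in d28-30. Nrcam, a related molecule, had 39.9, 37.2 and 39.0 CPM in wt, 38.9, 41.1 and 33.7 CPM in d9-20, and 45.3, 43.5 and 38.3 CPM in d28-30, and did not follow the order of libraries seen in the others. In d9-20 they differed from wt by -0.2 ± 0.18 and -0.03 ± 0.1, and the netrin receptor gene Dcc by -0.31 ± 0.21.

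All 6 genes for vesicle, growth cone and signalling proteins lay below wt in d9-20 (median -0.5) and above wt in d28-30 (median 0.16). Syt1, the calcium sensor of vesicle release, had 4.45, 2.76 and 4.73 CPM in wt, 2.78, 2.42 and 3.06 CPM in d9-20, and 4.83, 5.72 and 4.87 CPM in d28-30. Its d28-30 libraries lay above all others, and d9-20 overlapped wt through wt replicate 2. The differences were -0.53 ± 0.21 in d9-20 against wt (adjusted p = 0.707) and -0.9 ± 0.2 between the mutants (adjusted p = 0.277).

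Snap25, a SNARE protein of the same machinery, had 9.46, 5.27 and 6.73 CPM in wt, 4.25, 4.04 and 6.54 CPM in d9-20, and 9.43, 11.7 and 7.83 CPM in d28-30. The mutants did not overlap, at -0.96 ± 0.25 (adjusted p = 0.379). Gap43 had 77.7, 68.2 and 74.1 CPM in wt, 66.5, 62.8 and 73.0 CPM in d9-20, and 78.8, 71.3 and 73.0 CPM in d28-30, with a standard error of 0.08 for its log2 differences, the smallest of the 42 genes.

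Scg3, a granin of secretory vesicles, had 20.2, 14.7 and 17.6 CPM in wt, 13.9, 14.1 and 16.6 CPM in d9-20, and 24.5, 23.7 and 14.7 CPM in d28-30, with overlap of all genotypes. Syt4, a synaptotagmin relative with a wt mean of 1.35 CPM, was at -1.36 ± 0.45 in d9-20 against wt. It had only 12, 6 and 14 counts in d9-20 replicates 1, 2 and 3. Gng3, a G protein gamma subunit, was at -0.47 ± 0.25 in d9-20 against wt. About 24.2% of the exons of Gng3 overlap those of Bscl2 on the opposite strand, and 14.5% of those of Syt4 overlap a gene model on the opposite strand.

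**Figure D2:**
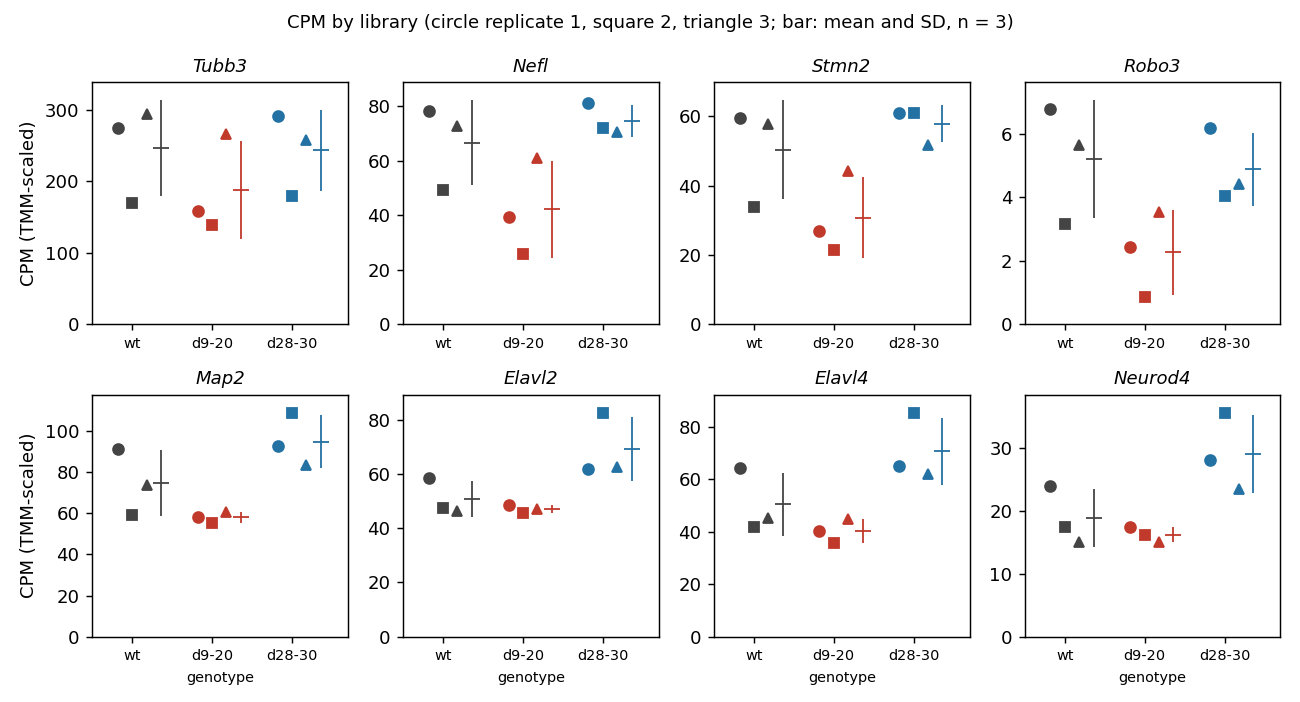
TMM-scaled CPM (y axis, from 0) of 8 newborn neuron genes in each library by genotype (x axis), with circles for replicate 1, squares for replicate 2, triangles for replicate 3 and bars for the mean and SD over 3 libraries. In the upper row d9-20 replicate 3 sits with wt replicates 1 and 3 or near wt replicate 2, as for Tubb3 at 266 CPM, and in the lower row d28-30 replicate 2 is the highest library, as for Neurod4 at 35.6 CPM.

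Within wt and within d9-20, most neuron genes moved together from library to library. Within d28-30 they did so less, where replicates 2 and 3 were each the lowest for 19 of the 42 genes. Replicate 2 was also the highest for 15 of the 42. Over all genes these shares were 43.0%, 28.8% and 42.9%. Each library was described by the median over the 42 genes of log2 CPM minus the mean of the gene over the 9 libraries. This median was 0.25, -0.32 and 0.1 in wt replicates 1, 2 and 3, then -0.34, -0.54 and 0.05 in d9-20, and 0.36, 0.15 and 0.2 in d28-30, while the median of all genes was 0.0 or 0.01 throughout. Wt replicate 2 was thus close to d9-20 replicate 1, and d9-20 replicate 3 was close to wt replicate 3. Within each replicate number, the median was lower in d9-20 than in wt. For replicate 3 it was 0.05 and 0.1, close beside a pooled SD of 0.251 between the library medians of a genotype. The titles do not say what the number marks, and it was not shown to pair the libraries. With the number as a replicate block, 18 of the 42 genes had an unadjusted p under 0.05 in d9-20 against wt, beside 13 without it. The share of all genes at that p was not counted with the block. Genes of the whole table past the adjusted threshold rose as well, from 0.166% to 0.35%.

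Wt replicate 2 was the lowest of the 3 wt libraries for 37 of the 42 genes, beside 31.8% of all genes, and d9-20 replicate 2 was the lowest of all 9 for 28 of the 42, as for 12.5% of all genes. D9-20 replicate 3 was the highest of its genotype for 36 of the 42, beside 40.5% of all genes. The number of the 42 genes below all 3 wt libraries was 23 in d9-20 replicate 1, 32 in replicate 2 and 4 in replicate 3, beside 22.6%, 26.6% and 18.6% of all genes. In d9-20 replicate 3, 8 of the 42 (19.0%) lay above all wt libraries, beside 23.7% of all genes. The number above all 3 wt libraries was 25 in d28-30 replicate 1, 17 in replicate 2 and 12 in replicate 3. Over all genes these shares were 22.0%, 38.3% and 21%, so the 17 of replicate 2 (40.5%) were near the share of all genes. The summed level of the 42 tested genes was 1990, 1360 and 1870 CPM in wt, 1330, 1160 and 1750 CPM in d9-20, and 2090, 1930 and 1870 CPM in d28-30.

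The spread within a genotype was larger for these genes than for most. The highest library over the lowest had a median of 1.6 in wt, 1.63 in d9-20 and 1.34 in d28-30 for the neuron genes, beside 1.19, 1.16 and 1.27 for all genes. The square root of the dispersion per gene had a median of 0.178, beside 0.105 for all genes. Leaving out wt replicate 1 moved the median difference in d28-30 against wt from 0.17 to 0.295. Between the mutants the median was -0.728 without d9-20 replicate 3 and -0.436 without d9-20 replicate 2.

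**Figure D3:**
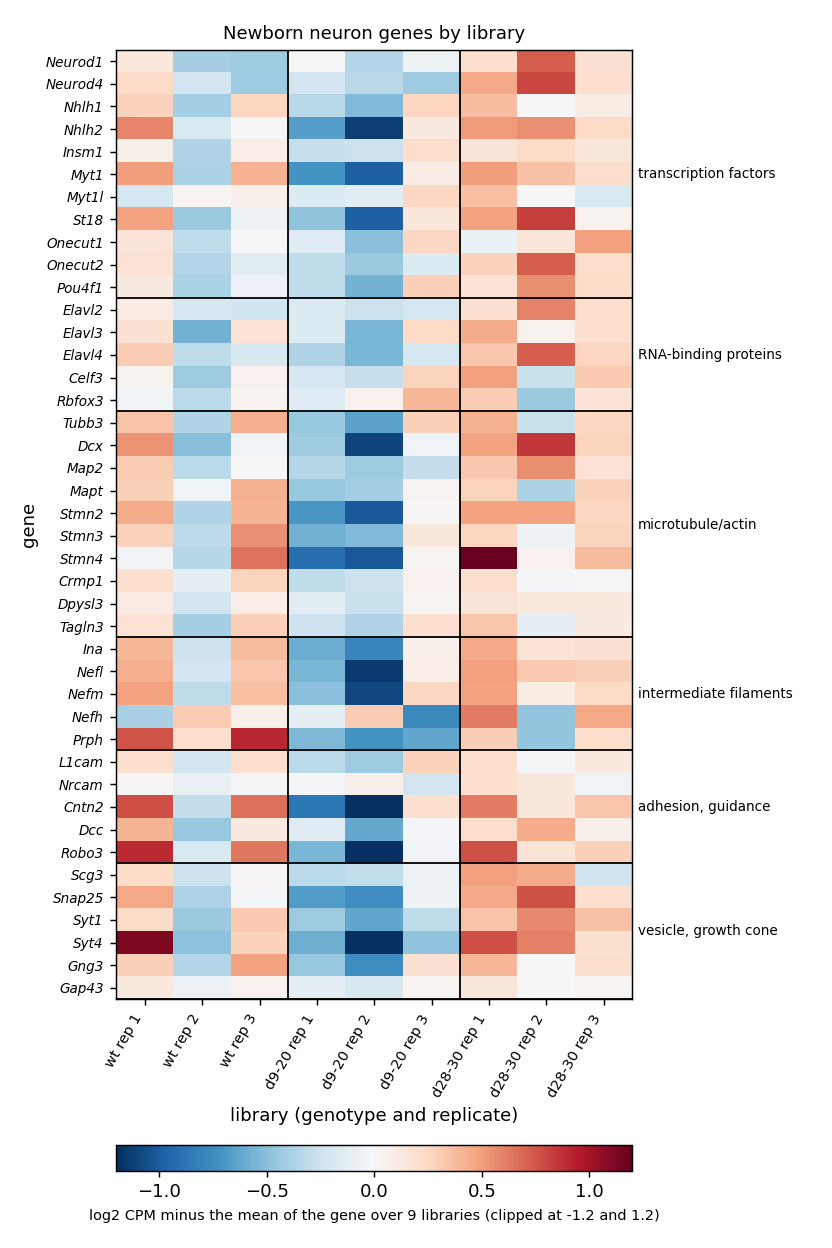
Log2 CPM minus the mean of each gene over the 9 libraries (colour, blue low and red high, clipped at -1.2 and 1.2) for the 42 genes (rows, grouped by role) in each library (columns, by genotype). Wt replicate 2 and d9-20 replicates 1 and 2 are mostly blue, with medians of -0.32, -0.34 and -0.54, and d9-20 replicate 3, at 0.05, is not.

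The d28-30 replicate 2 library, which stood apart over all genes, did so among the neuron genes by their transcript GC content. The GC content of the longest annotated transcript was found for all 42 genes and for 97.3% of all genes tested, with medians of 49.9% and 49.8%. In this library, the correlation across the 42 genes between GC content and the log2 deviation was -0.80 (Spearman's rho, over genes, which are not independent), and -0.72 over 15272 genes. In wt replicate 3 it was 0.60 and 0.56, and in d9-20 replicate 3 it was 0.49 and 0.56. In the other 6 libraries it lay between -0.13 and 0.23 for the 42 genes.

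The 21 genes at or under the median GC content had a median deviation of 0.56 in d28-30 replicate 2, and the 21 over it a median of 0.00. At the low end of GC content stood Neurod4 at 38%, Elavl2 at 38.5%, Snap25 at 38.7%, Elavl4 at 38.9% and Dcx at 40.6%. At the high end stood Insm1 at 62%, Prph at 60.8%, Rbfox3 at 58.6%, Nefh at 58.4%, Tubb3 at 57.9% and Nefm at 57.8%. In d28-30 replicate 2, Prph, Rbfox3, Nefh and Tubb3 deviated by -0.47, -0.44, -0.48 and -0.27. Insm1 and Nefm went the other way, by 0.24 and 0.09. The 6 genes with an unadjusted p under 0.05 in d28-30 against wt all lay under the median GC content. Each library's trend with GC content was therefore taken out before the fit, as an alternative chosen after the data were seen.

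With this correction, the log2 difference in d28-30 against wt moved from 0.63 to 0.382 for Neurod4, from 0.44 to 0.208 for Elavl2, from 0.49 to 0.26 for Elavl4, from 0.51 to 0.373 for Onecut2 and from 0.6 to 0.486 for Neurod1. Without d28-30 replicate 2 and with no correction, the same 5 genes were at 0.447, 0.294, 0.326, 0.331 and 0.399, in that order. The median over the 42 genes with the correction was 0.164, beside 0.17 without it, with 38 of the 42 above 0. In d9-20 against wt the median was -0.324 with 38 of 42 below 0, and between the mutants it was -0.566 with all 42 below 0. The library medians were 0.23, -0.32 and 0.14 in wt, -0.34, -0.55 and 0.04 in d9-20, and 0.35, 0.24 and 0.2 in d28-30, so only d28-30 replicate 2 took another place in the order of the libraries.

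The correction raised the number of genes called in the table to 121 in d9-20 and 106 in d28-30 against wt and to 8 between the mutants, with none of the 42 among them. The smallest adjusted p of a neuron gene was then 0.0554, for Prph in d9-20, 0.172 for Neurod1 in d28-30 and 0.0669 for Neurod4 between the mutants. With the replicate block added, 187 genes of the table passed in d9-20 against wt (1.22%), and Prph was the only neuron gene among them (adjusted p = 0.0476, edgeR).

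**Figure D4:**
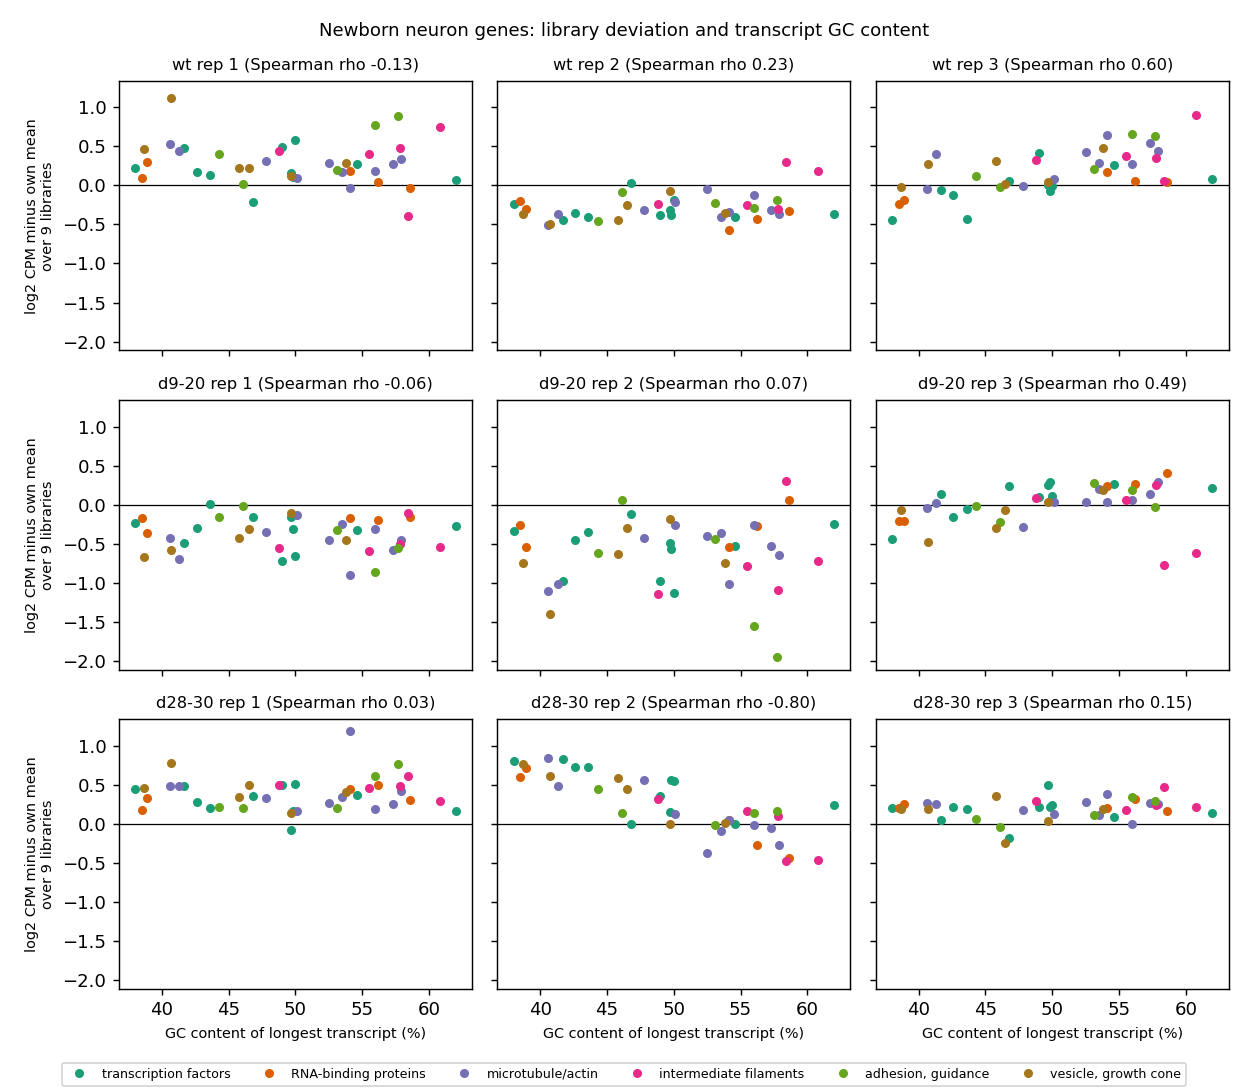
Log2 CPM minus the mean of each gene over the 9 libraries (y axis) against the GC content of its longest transcript in percent (x axis) for the 42 genes, coloured by role, with 1 panel per library. The d28-30 replicate 2 panel slopes downward (Spearman's rho -0.80), and the wt replicate 3 and d9-20 replicate 3 panels slope upward (0.60 and 0.49).

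Other genes of the neuronal lineage were read in the same libraries from lists chosen by function. Of 27 further neuronal genes tested, such as kinesins, chromogranins and synaptic vesicle genes, 24 lay below wt in d9-20 (median -0.15) and 18 above it in d28-30 (median 0.13). They had medians of -0.16 in wt replicate 2 and of -0.12 and -0.31 in d9-20 replicates 1 and 2, the same 3 libraries. One of them rose: Syt13, an atypical synaptotagmin, had 17.1 ± 2.37 CPM (SD, n = 3) in wt and 33.5 ± 1.63 in d28-30, at 0.97 ± 0.13 (adjusted p = 0.0194, edgeR), and 27.9 ± 4.53 in d9-20, at 0.71 ± 0.13 (adjusted p = 0.0874). Its relatives Syt1 and Syt4 were at 0.37 and 0.07 in d28-30 and at -0.53 and -1.36 in d9-20, where none of the 3 passed. Rab3c, a vesicle GTPase, was at -1.04 ± 0.23 between the mutants (adjusted p = 0.277).

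Of 17 genes of the step from progenitor to neuron, such as Neurog1, Dll1 and Hes6, 13 lay below wt in d9-20 (median -0.09) and 7 above it in d28-30 (median -0.04), and none passed. Their medians were also lowest in wt replicate 2 (-0.16) and d9-20 replicates 1 and 2 (-0.15 and -0.22). Atoh1, the proneural factor of the rhombic lip, was at -0.61 ± 0.26 in d9-20 (adjusted p = 0.797), and Sox11, an HMG factor of young neurons, at 0.24 ± 0.09 in d28-30 (adjusted p = 0.555). Of 22 tested transcription factors that mark classes of neurons, 16 lay below wt in d9-20 (median -0.15) and 14 above it in d28-30 (median 0.19), with Sim1 at -1.06 ± 0.27 (adjusted p = 0.379) and Pax2 at 0.41 ± 0.13 (adjusted p = 0.403) between the mutants.

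The 16 neural progenitor genes had smaller medians, with 8 below wt in d9-20 (median -0.03), 9 below it in d28-30 (median -0.02) and library medians between -0.1 and 0.11. Their medians were also lowest in wt replicate 2 and d9-20 replicates 1 and 2 (-0.08, -0.04 and -0.1), with sums of 2770, 2730 and 2590 CPM, beside 2860 to 3260 CPM in the other 6 libraries. Fabp7, a fatty acid binding protein of radial cells, was at -0.69 ± 0.22 in d9-20 (adjusted p = 0.471), and Prom1, a membrane protein of progenitors, at 0.26 ± 0.09 in d28-30 (adjusted p = 0.564). Genes of cranial ganglia, which hold neurons outside the hindbrain and can come along in a dissection, had 7 of 12 above wt in d9-20 (median 0.11) and 9 of 12 in d28-30 (median 0.21), and their summed level was 220 to 290 CPM over all libraries, with 237, 263 and 238 CPM in wt replicate 2 and d9-20 replicates 1 and 2. Ntrk2, a neurotrophin receptor, was at -0.27 ± 0.1 in d9-20.

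A group of genes known to decline with embryonic age was high where the neuron genes were low. Lin28a, Lin28b, Hmga2, Trim71, Igf2bp1 and Igf2bp3 encode RNA-binding and chromatin proteins of early embryonic tissue. All 6 lay above their own mean in wt replicate 2 and in d9-20 replicates 1 and 2, the 3 libraries low in neuron genes, and in no other library did more than 3 of them. Their summed level was 2600, 2610 and 2700 CPM in those 3 libraries and 2130 to 2380 CPM in the other 6. All 6 lay above wt in d9-20 (median 0.12) and 3 in d28-30 (median -0.01), and none passed, with Lin28a at 0.23 ± 0.15 and Trim71 at 0.18 ± 0.07 in d9-20. The part of embryonic age in the levels of the neuron genes was not tested.

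**Figure D5:**
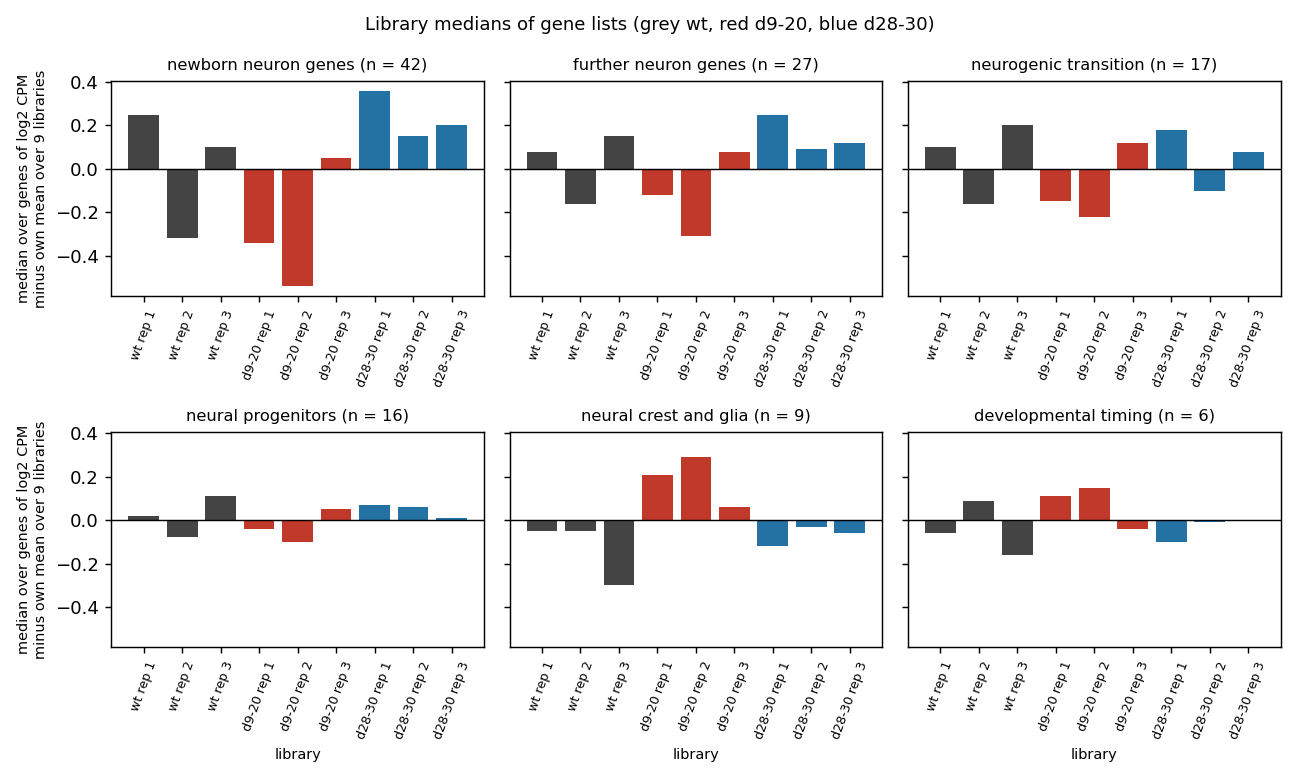
Median over the genes of each list of log2 CPM minus their own mean over 9 libraries (y axis) in each library (x axis; grey wt, red d9-20, blue d28-30). The newborn neuron genes, further neuron genes and neurogenic transition genes are low in wt replicate 2 and d9-20 replicates 1 and 2, where the developmental timing genes are high.

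Markers of other cell types that a dissected hindbrain can hold also varied between libraries. All 9 neural crest and glial precursor genes lay above wt in d9-20 (median 0.33), with Sox10 at 0.33 ± 0.11 (adjusted p = 0.504) and Erbb3 at 0.19 ± 0.1, and 6 of 9 in d28-30 (median 0.06). Their summed level ran from 322 to 369 CPM over the wt libraries, from 400 to 435 over d9-20 and from 349 to 359 over d28-30. All 10 erythroid genes lay below wt in d9-20 (median -0.57), and the summed level ran from 4030 to 7690 CPM over wt, from 3570 to 4140 over d9-20 and from 4230 to 6330 over d28-30. Hbb-y and Hbb-bh1, embryonic globin genes, were at -0.76 ± 0.2 and -0.63 ± 0.21. With a covariate for the share of erythroid reads, the median difference of the neuron genes in d9-20 was -0.122, beside -0.32, with 29 of 42 below 0, and between the mutants it was -0.442. That share was 0.356% to 0.409% in d9-20, 0.4% to 0.779% in wt and 0.415% to 0.636% in d28-30. It was thus partly confounded with genotype, and the fit cannot fully tell them apart.

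The 6 macrophage genes tested were scarce, with a summed level from 5.22 to 9.37 CPM over wt, from 2.62 to 5.92 over d9-20 and from 6.02 to 9.13 over d28-30. Like the neuron genes, they were low in wt replicate 2 and d9-20 replicates 1 and 2. Their medians there were -0.21, -0.53 and -0.98, beside 0.02 to 0.64 in the other libraries. Csf1r, the receptor that marks this lineage, was at -1.1 ± 0.28 in d9-20 (adjusted p = 0.263) and Cx3cr1 at -0.99 ± 0.44. Mesenchyme genes lay on both sides of wt in d9-20 (6 of 10 above, median 0.14), with Col1a1 at -1.52 ± 0.27 (adjusted p = 0.0664) and Col1a2 at -0.63 ± 0.13. All 8 endothelial genes lay above wt in d9-20 (median 0.14), with Kdr at 0.2 ± 0.06 and Cdh5 at 0.23 ± 0.09. The part of these cell types in the levels of the neuron genes was not tested, and the erythroid covariate is no such test.

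The summed level of the surface ectoderm genes was 237 CPM in wt replicate 2 and 197 and 209 CPM in d9-20 replicates 1 and 2, and 150 to 172 CPM in the other 6 libraries. These genes had a median of -0.02 in d9-20 and -0.26 in d28-30 against wt, where Krt18 and Krt8 were at -0.49 ± 0.18 and -0.45 ± 0.17. Regional genes, which bear on how the tissue was cut, had medians of 0.06 (hindbrain list) and 0.26 (forebrain and midbrain list) in d9-20 and of -0.17 and 0.18 in d28-30. Egr2, a factor of rhombomeres, was at -1.03 ± 0.34 in d28-30 (adjusted p = 0.48), while Otx2 was at 0.21 ± 0.1 and Pax5 at 0.04 ± 0.11. Among the genes in these lists other than Syt13, none passed an adjusted p of 0.05 in any comparison.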

How the data were processed

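RNA from 9 hindbrain samples went through a stranded TruSeq kit and was sequenced as single reads, per the labels' protocols. The authors deposited raw read counts per gene, 1 column per library. STAR 2.5.3a, featureCounts, limma and the mm10 and GRCm38 builds are named per the submitters' processing notes. The strand setting and annotation were not given in the sources used here, so genes whose exons overlap are uncertain.

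The deposited counts were fitted in R 4.3.3 with edgeR 4.0.16 (quasi-likelihood, TMM, filterByExpr by genotype, all 9 libraries in 1 fit). Benjamini-Hochberg adjustment ran over 15695 genes, with a threshold of 0.05. Standard errors are the log2 difference over the square root of F. DESeq2 1.42.0 and limma 3.58.1 (voom) were alternatives. The tests were checked on simulated data. CPM were scaled by TMM, and log2 CPM used a prior count of 2. Lengths and GC content came from GENCODE M21. The GC correction, a lowess curve per library (span 0.3) used as an offset, was chosen after seeing the data. The floor of 3 counts covers counting error only, while SDs and standard errors include the spread between libraries.

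Genes given in every library were, in each role, the 2 of highest mean CPM and the 2 of smallest p for any difference, besides any past the threshold. The lists were neurogenic transition, further neuron, neuron class factor, neural progenitor, cranial ganglion, neural crest and glia, mesenchyme, endothelial, erythroid, macrophage, surface ectoderm, forebrain and midbrain, hindbrain and developmental timing, each shown by up to 2 genes of smallest p, of which some are not reported here. No list shares a gene with the neuron genes. The members and lists were chosen with earlier results of these data known.

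As to pairing, titles give a number without saying what it marks. The deviations of same-numbered libraries correlated at 0.133, 0.269 and 0.494 in d9-20 against wt, each over 0.1. The block is therefore given beside the main results of that comparison only. For the other comparisons it is given only among the alternative runs. The correlations were -0.211, 0.196 and 0.243 in d28-30 against wt and 0.0951, 0.162 and 0.229 between the mutants. In d9-20 against wt, unlike-numbered libraries ran from -0.388 to 0.2, the highest for d9-20 replicate 1 with wt replicate 2. This was above the 0.133 of the replicate 1 pair. The replicate 3 libraries of wt and d9-20 also shared a trend with GC content. The numbers were thus not shown to pair the libraries.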

Additional observations from a re-analysis of the deposited data

How the results depend on the processing

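The median log2 difference of the neuron genes kept its sign in every alternative run, but not its size. In d9-20 it was -0.122 with the erythroid covariate, and leaving out 1 library gave -0.48 (without wt replicate 2) to -0.172 (without wt replicate 1). In d28-30 leaving out 1 library gave 0.05 (without wt replicate 2) to 0.295 (without wt replicate 1), with 0.079 without d28-30 replicate 1. The range was -0.728 (without d9-20 replicate 3) to -0.436 (without d9-20 replicate 2) between the mutants. The number of genes called in the whole table depended on the choices. Without the filter it was 148 in d9-20, 98 in d28-30 and 133 between the mutants, with 5, 2 and 15 neuron genes, and with DESeq2 it was 121, 95 and 79, with 0, 0 and 8 neuron genes. A fit of only the 2 genotypes compared gave 40 in d9-20 and 12 in d28-30. With the replicate block it was 55, 48 and 2, and the block called none of the neuron genes. In d9-20, the Y-linked covariate gave 13 genes and the erythroid covariate 7. The GC correction gave 121, 106 and 8, and with the replicate block 187, 134 and 38. With both, 1 neuron gene passed in d9-20 (Prph) and 1 between the mutants (Neurod4, at -0.624 with an adjusted p of 0.0359 by edgeR). The numbers were not shown to pair the libraries. Leaving out 1 library gave 6 (without wt replicate 3) to 93 (without d28-30 replicate 2) in d9-20, 10 to 33 in d28-30 without the same libraries, and 0 to 4 between the mutants, and called no neuron gene. The causes were not tested.

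Some signs turned, among them that of Tubb3 in d9-20, which was -0.39. With the erythroid covariate in d9-20, Tubb3 was at 0.096, Dpysl3 at 0.013, Elavl3 at 0.304, Neurod1 at -0.084, L1cam at 0.007 and Nrcam at 0.04. In d28-30, Tubb3 was at 0.001 with the replicate block, 0.008 with the Y-linked covariate, 0.161 with the erythroid covariate, 0.08 with the GC correction and 0.11 with both GC correction and block. There, Cntn2 was at 0.107 with the erythroid covariate, 0.005 with the GC correction and 0.068 with GC correction and block, and Robo3 at 0.066 with the erythroid covariate and 0.048 with GC correction and block. Leaving out 1 library gave, in d9-20, -0.314 to 0.077 for Elavl3, -0.019 to 0.279 for Neurod1 and -0.095 to 0.051 for Nrcam. In d28-30 it gave -0.23 to 0.158 for Tubb3, -0.024 to 0.336 for Stmn2, -0.023 to 0.29 for Nefl, -0.145 to 0.216 for Nefm, -0.11 to 0.091 for L1cam, -0.351 to 0.111 for Cntn2, -0.368 to 0.135 for Robo3 and -0.034 to 0.061 for Gap43. Depth limits Nefh and Prph, which lay near the floor of 3 counts, and Syt4, with 6 to 14 counts in the d9-20 libraries.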
